A study of Mus musculus with 16 samples.

Results

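The tumour necrosis factor (TNF) superfamily was followed in the mouse aorta through 46 protein-coding genes: 16 ligands, 23 receptors and 7 TRAF adapters. They were taken by gene symbol from a table of 54532 genes: Tnf, the numbered Tnfsf and Tnfrsf genes, Lta, Ltb, Ltbr, Fas, Fasl, Cd40, Cd40lg and Traf1 to Traf7. This rule uses no measured value, but it was chosen with earlier results of these data known. The samples were whole aortas, stripped of the outer adventitial layer, from male Apoe-/- mice aged 8 to 12 weeks with the strain given as C57BL/6j. All mice lacked apolipoprotein E, the plasma protein that clears cholesterol-rich particles, so that the controls carried this defect too. For 7 days an implanted osmotic pump delivered either saline (0.9% sodium chloride, 8 libraries) or angiotensin II (Ang II, 1000 ng/kg/min, 8 libraries), the hormone that constricts arteries and raises blood pressure. Each mRNA library was sequenced and summarised as FPKM, a fragment count divided by transcript length and sequencing depth. The labels do not state that each library came from its own mouse, so p-values measure only the spread between libraries.

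Ligands of this superfamily are trimers, most of them anchored in the cell membrane, which gather their receptors into clusters on the target cell. Receptors with a death domain can start caspase activation or a kinase cascade, other receptors bind TRAF proteins directly, and both routes can lead to the transcription factor NF-kB and to JNK kinases. Decoy receptors bind a ligand without passing on a full signal. In arteries, TNF activates the endothelium, TWEAK (Tnfsf12) acts on smooth muscle cells through its receptor Fn14 (Tnfrsf12a), and smooth muscle cells secrete the decoy osteoprotegerin (Tnfrsf11b), whose loss in mice leads to arterial calcification.

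The totals of fragments assigned to genes, recovered from the FPKM values, were 14606864 to 17590088 with saline and 15779125 to 19988730 with Ang II. At these totals a single fragment from a 1 kilobase transcript amounts to between 0.05003 and 0.0685 FPKM. Smooth muscle markers such as Acta2 and Myh11 were abundant in every library, with a sum of 8 genes of 9006 to 15330 FPKM with saline and 6348 to 10830 FPKM with Ang II. Of these 8 genes 4 were lower with Ang II. Macrophage and monocyte markers were scarcer but varied more, from 19.8 to 646 FPKM in sum with saline and from 61.1 to 697 with Ang II, and 3 of the 11 tested were higher and none lower. The saline libraries 7, 8 and 2 lay apart from the rest on the first principal component, which held 46.9% of the variance. Where a call changed or a called value moved by over 1.5 times without them, that value is given beside the result.

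Across the aorta, 15007 genes had a mean of at least 0.5 FPKM and were tested with limma on log2(FPKM + 1), and 5172 of them (34.5%) had an adjusted p under 0.05. Of all tested genes 9.54% were higher with Ang II and 24.9% were lower, and the median log2 fold change was -0.12. Among the 46 superfamily genes 31 were tested, and 5 of these 31 rose and 5 fell. In all, 32.3% of the tested members passed the threshold, close to the share among all genes. The 5 that rose were all receptors: Tnfrsf23, Tnfrsf11b, Tnfrsf12a, Tnfrsf10b and Tnfrsf1b. The 5 that fell were the ligand Tnfsf12, the receptors Tnfrsf21 and Tnfrsf4 and the adapters Traf5 and Traf7. Of the 19 tested receptors 5 rose and 2 fell with a median log2 fold change of 0.28, of the 5 tested ligands none rose and 1 fell with a median of -0.43, and of the 7 adapters none rose and 2 fell with a median of -0.28. These medians were not firm: that of the ligands, which is the value of Ltb, was -0.22 without Saline 6, that of the receptors was 0.08 without Saline 7 and Saline 8, and that of the adapters was -0.18 without Saline 8. Other fits gave larger medians. With 0.1 added to the FPKM in place of 1 they were -0.71 (ligands), 0.61 (receptors) and -0.35 (adapters). Limma voom on recovered fragments gave -0.74, 0.75 and -0.35 in the same order. After scaling of the libraries by median ratios, which brought the median of all genes to -0.01, 29% of all genes passed, 14.9% higher and 14.1% lower, and 7 members were higher and 3 lower. Quantile normalization, with 30.9% of all genes past the threshold, 15.1% higher and 15.8% lower, gave 6 higher and 4 lower.

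**Figure D1:**
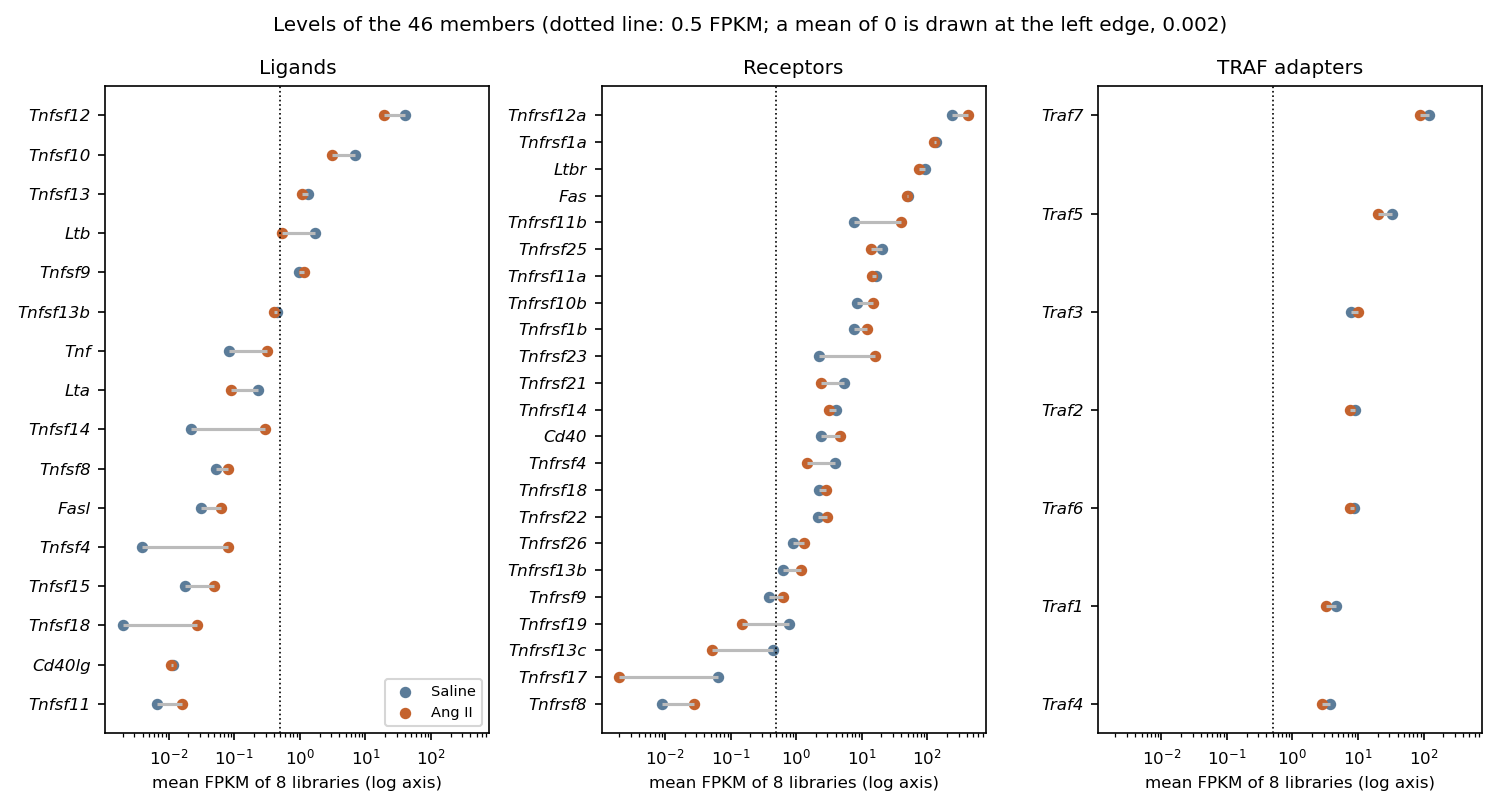
Mean FPKM over 8 libraries per group of all 46 genes, on a log axis, with ligands, receptors and adapters in separate panels; blue points are saline, orange points Ang II, and the dotted line is the minimum of 0.5 FPKM for testing. Tnfrsf12a stands at the top of the receptors, and 11 of the 16 ligands lie below the line.

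**Figure D2:**
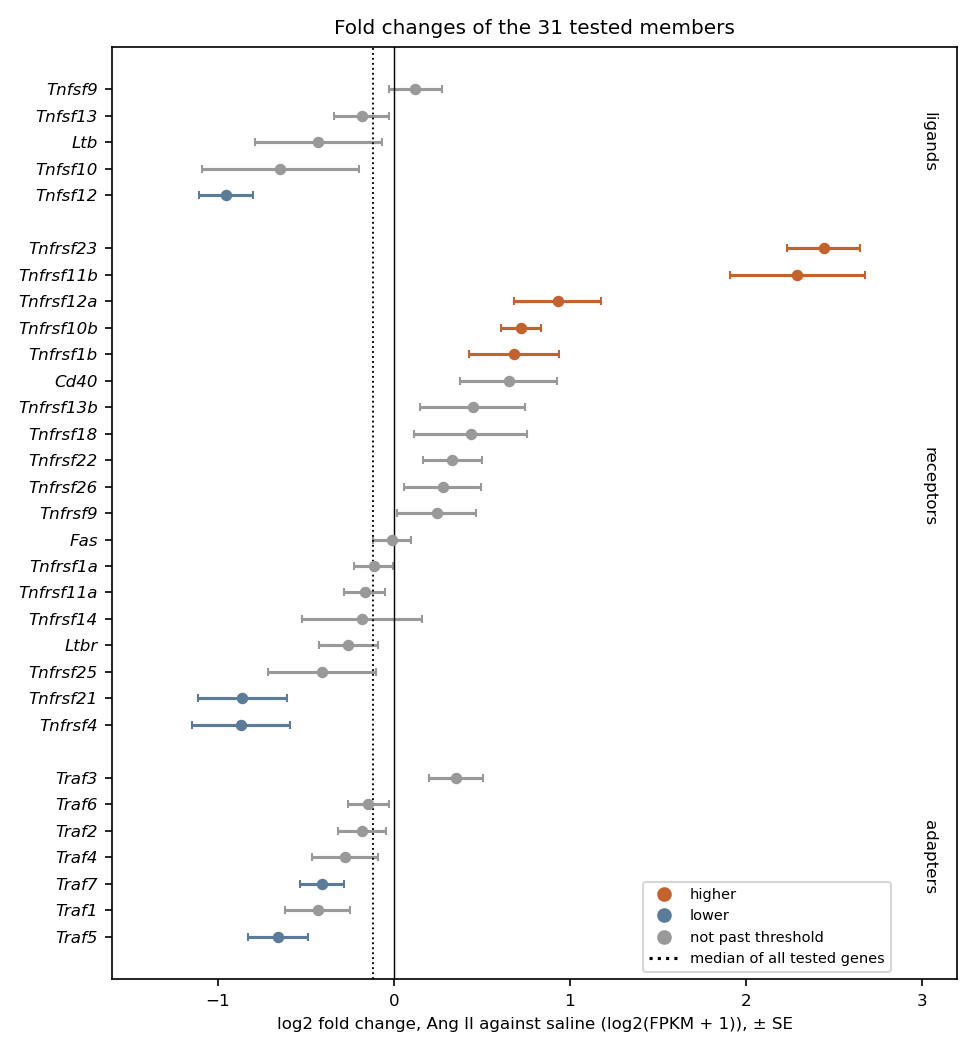
Log2 fold change of each of the 31 tested genes with Ang II against saline, on the log2(FPKM + 1) scale, with its standard error; orange points rose, blue points fell, grey points did not pass the threshold, and the dotted line is the median of all tested genes at -0.12. Tnfrsf23 at 2.44 and Tnfrsf11b at 2.29 lie far to the right of the others.

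Most ligand genes were near or below the limit of these libraries. TNF itself, the prototype ligand made mainly by macrophages and T cells, reached a mean of 0.0838 ± 0.0828 FPKM with saline and 0.312 ± 0.293 with Ang II (SD, n = 8 each), which were 17 and 68 fragments in all. Its lowest, median and highest values were 0, 0.0567 and 0.221 FPKM with saline and 0.0385, 0.168 and 0.857 with Ang II, so the groups overlapped. In a fit without the minimum 14.4% of 31423 genes passed, 4.12% higher and 10.2% lower. Tnf did not pass there (log2 fold change 0.25 on the log2(FPKM + 1) scale, limma adjusted p = 0.144). On that scale the added 1 shrinks the fold changes of Tnf and of the other members near or below 1 FPKM. Such fold changes understate the ratio of the fragment counts. The RANK ligand Tnfsf11, which drives osteoclast formation, gave 2 fragments in all 8 saline libraries and 5 in the Ang II libraries. The CD40 ligand Cd40lg of activated T cells gave 2 and 2 fragments, and the Fas ligand Fasl, a killing molecule of lymphocytes, gave 5 and 11.

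Of the other ligands below the minimum, Tnfsf4, the OX40 ligand of antigen-presenting cells, gave 1 fragment with saline and 21 with Ang II and passed in the fit without the minimum (log2 fold change 0.10, limma adjusted p = 0.0486). It was detected in 1 of 8 saline and 6 of 8 Ang II libraries. Tnfsf18, which binds the receptor GITR, was at 0 in all saline libraries and gave 8 fragments with Ang II. Against a limit of detection of 3 fragments over the whole saline group, these 8 fragments were 2.49-fold higher at the depths of the groups. That ratio takes the 8 fragments as exact, so it is no lower bound on the change. Tnfsf18 had a limma adjusted p of 0.0905. Tnfsf14, or LIGHT, gave 5 fragments with saline and 72 with Ang II, of which 47 came from the single library Ang II 1. That library also held the highest summed macrophage markers (697 FPKM) and neutrophil markers (130 FPKM) of its group. Their part in the Tnfsf14 value was not tested. Lymphotoxin alpha (Lta) gave 40 and 18 fragments, Tnfsf8 26 and 43, Tnfsf15 8 and 25, and the B cell survival factor Tnfsf13b (BAFF) 120 and 110, and none of these passed.

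TWEAK (Tnfsf12) was the most abundant ligand and the only tested one past the threshold. It ranged from 26.8 FPKM through a median of 35.7 to 66.5 with saline, and from 16.1 through 19.7 to 23.4 with Ang II. The groups did not overlap, which in this direction was the case for 5.62% of all tested genes. The means were 39.7 ± 12.6 and 19.5 ± 2.63 FPKM (SD, n = 8 each), a log2 fold change of -0.95 ± 0.15 (SE, limma adjusted p = 0.000185). The gene (chromosome 11, bases 69686250 to 69695849 of GRCm38, minus strand) shares 48.3% of its exon bases with a read-through gene, Tnfsfm13, that joins it to Tnfsf13. The read-through gene was low, at 1.77 ± 0.590 and 1.47 ± 0.400 FPKM, but fragments of the shared exons cannot be assigned to 1 gene with certainty. The fall of Tnfsf12 passed in all 28 alternative analyses, from -1.02 to -0.71. Of the smooth muscle markers 4 of 8 fell with Ang II, against 24.9% of all tested genes. Tnfsf12 had Pearson r = -0.18 within saline and 0.09 within Ang II libraries with the smooth muscle marker score (exact permutation p = 0.663 and 0.820). The part of smooth muscle RNA in the fall of Tnfsf12 between the groups was not tested.

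The other 4 tested ligands did not pass. The TRAIL gene Tnfsf10, whose product kills cells through death receptors, had a lowest value of 0.584, a median of 6.59 and a highest value of 14.5 FPKM with saline against 0.742, 3.05 and 6.00 with Ang II. The saline libraries 2, 7 and 8 fell within the Ang II range or below it and the other 5 lay above it, and the log2 fold change of -0.65 had a 95% interval of -1.58 to 0.29 (limma adjusted p = 0.271). Without Saline 7 and Saline 8 it was -1.22 and passed (adjusted p = 0.0103). Lymphotoxin beta (Ltb), which shapes lymphoid tissue, stood at 0.147 to 0.751 FPKM in 7 saline libraries and at 9.78 in Saline 6, with 0.0546 to 1.64 FPKM with Ang II. Saline 6 also held the highest summed B cell markers, 49.1 FPKM against a saline median of 2.36, and the part of B cell RNA in Ltb was not tested. APRIL (Tnfsf13) averaged 1.34 ± 0.467 and 1.07 ± 0.412 FPKM (adjusted p = 0.382), with 60% of its exon bases shared with neighbouring genes. Tnfsf9, the partner of Tnfrsf9, averaged 0.963 ± 0.284 and 1.17 ± 0.519 FPKM (adjusted p = 0.550).

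Among the receptors, Fn14 (Tnfrsf12a), the receptor of TWEAK, had the highest FPKM of all 46 genes in both groups. Saline libraries ran from 119.8 through a median of 189 to 488 FPKM and Ang II libraries from 301 through 428 to 569.7. In 4 of the 8 Ang II libraries it exceeded the whole saline range. The means were 234 ± 119 and 421 ± 115 FPKM, a change of 0.93 ± 0.25 on the log2 scale (limma adjusted p = 0.00843). The highest saline value came from 1 of the libraries that stood apart, and without Saline 7 and Saline 8 the log2 fold change was 1.2 (adjusted p = 0.000374). Tnfrsf12a passed in all 28 alternatives.

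With Tnfsf12 lower and Tnfrsf12a higher, the balance of receptor to ligand within a library shifted further than either gene alone. The FPKM ratio of Tnfrsf12a to Tnfsf12 ran from 3.23 through a median of 6.21 to 8.28 with saline and from 12.9 through 20.9 to 35.1 with Ang II. No Ang II library overlapped the saline range. On the log2(FPKM + 1) scale the difference was 1.88, with an exact two-sided permutation p of 0.000155, the smallest that 8 against 8 libraries can give, and an adjusted p of 0.000373 over the 12 ratios computed. On that scale the difference of this and every later ratio only combines the changes of its 2 genes. Its p is therefore no support independent of the values of those genes. Whether more receptor per cell or more receptor-bearing cells are behind such a value cannot be told apart in RNA from whole tissue, and the same holds for every level below.

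Of the 31 tested members, Tnfrsf23, a mouse decoy receptor for TRAIL, had the largest change on the log2(FPKM + 1) scale. Its values were 0.133, 2.39 and 3.56 FPKM (lowest, median, highest) with saline and 12.8, 16 and 17.7 with Ang II. The groups did not overlap, which held in this direction for 2.74% of all tested genes. The means were 2.25 ± 0.969 and 15.7 ± 1.57 FPKM and the log2 fold change was 2.44 ± 0.21 (limma adjusted p = 3.03e-07). Saline 8 gave the lowest value, from 3 fragments, and without it the log2 fold change was 2.24. Without Saline 7 and Saline 8 it was 2.21, and it passed in all 28 alternatives. An antisense gene covers 4.14% of its exon bases, and strand could not be separated.

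Tnfrsf23 lies on the minus strand of chromosome 7 in a row of 3 related receptors. In GRCm38, Tnfrsf26 spans bases 143607659 to 143628722, Tnfrsf22 follows after a gap of 6083 bases at 143634806 to 143649661, and Tnfrsf23 after a further 16147 bases at 143665809 to 143685872. Tnfrsf22, also a TRAIL decoy, ran from 0.671 through 2.43 to 2.76 FPKM with saline and from 1.64 through 2.93 to 4.01 with Ang II, and did not pass (log2 fold change 0.33, 95% interval -0.02 to 0.68, limma adjusted p = 0.131). It passed after median ratio scaling (adjusted p = 0.0485). Tnfrsf26, a related receptor with no ligand assigned here, averaged 0.895 ± 0.562 and 1.31 ± 0.759 FPKM (log2 fold change 0.28, 95% interval -0.18 to 0.74, adjusted p = 0.338).

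The rise of Tnfrsf23 exceeded those of both neighbours within the same libraries. Its FPKM ratio to Tnfrsf22 was 0.198 to 2.01 with saline and 4.05 to 9.19 with Ang II, and the log2 ratio rose by 2.11 (exact permutation, adjusted p = 0.000373). The ratio to Tnfrsf26 was 1.45 to 5.94 with saline and 4.55 to 45.8 with Ang II, and the log2 ratio rose by 2.17 (exact permutation, adjusted p = 0.000373). These neighbour ratios were chosen after the values were seen, so their p-values are no independent support. Transcripts of Tnfrsf22 and Tnfrsf23 share 719 stretches of 50 bases, 17.3% and 18% of all such stretches in each, so some fragments could have been assigned to either, and neither shares any with Tnfrsf26.

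The stretches of 250 bases before the RefSeq start of Tnfrsf23 and of Tnfrsf12a are shown because they head the tested receptor with the largest rise and the most abundant one. Capitals mark matches to a relaxed NF-kB motif (3 G, any 5 bases, then 2 C), searched on both strands, and the letters are from the RefSeq table of build GRCm38.p6, minus strand, 5′ to 3′.
Tnfrsf23 chr7:143685876-143686125: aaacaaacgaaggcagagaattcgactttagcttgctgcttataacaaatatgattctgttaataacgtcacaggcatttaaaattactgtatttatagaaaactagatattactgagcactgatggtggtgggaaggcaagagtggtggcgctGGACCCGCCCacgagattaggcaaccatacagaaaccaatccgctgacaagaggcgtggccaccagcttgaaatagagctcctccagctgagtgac
Tnfrsf12a chr17:23677450-23677699: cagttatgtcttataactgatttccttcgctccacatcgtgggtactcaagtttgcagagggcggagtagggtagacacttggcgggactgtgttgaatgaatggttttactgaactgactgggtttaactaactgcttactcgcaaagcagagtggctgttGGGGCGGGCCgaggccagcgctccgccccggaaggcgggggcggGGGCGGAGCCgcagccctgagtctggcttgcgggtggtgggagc
The single match before Tnfrsf23 begins 96 bases before the start and is read on the other strand, while the matches before Tnfrsf12a begin 88 and 44 bases before the start on the strand shown. This motif occurs in 45.8% of all 32851 windows of that length and in those of 26 of the 37 members with a sequence (70.3%), including 5 of the 7 that passed the threshold. The AP-1 motif TGANTCA was in 6.75% of all windows and 6 of 37 members, and the TEAD motif CATTCC in 12.6% and 5 of 37, neither of them in the windows shown. A match is a description of letters and does not show that a factor binds there.

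The death receptor for TRAIL, Tnfrsf10b (DR5), rose as well. Saline libraries lay between 7.19 and 10.04 FPKM with a median of 8.37, and Ang II libraries between 10 and 18.04 with a median of 14.7. All Ang II libraries except Ang II 2 lay above the saline range. The means were 8.40 ± 0.951 and 14.7 ± 2.64 FPKM, with a change of 0.72 ± 0.11 on the log2 scale (limma adjusted p = 0.000157), and the call held in all 28 alternatives. Tnfrsf10b carries a death domain, which the decoy Tnfrsf23 lacks, so a signalling and a decoy receptor of the same ligand rose in the same tissue.

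Osteoprotegerin (Tnfrsf11b), the secreted decoy for RANK ligand and TRAIL, also rose. Its values were 1.69, 8.45 and 15.02 FPKM with saline and 15.9, 33.0 and 86.3 with Ang II, with no overlap. The means were 7.67 ± 4.82 and 39.2 ± 22.6 FPKM, a change of 2.29 ± 0.39 on the log2 scale (limma adjusted p = 0.000285). It was 1.91 without Saline 7 and Saline 8 and 1.84 once the macrophage marker score entered the fit, and it passed in all 28 alternatives. Its signalling counterpart RANK (Tnfrsf11a) stood at 16.4 ± 2.83 and 14.5 ± 2.14 FPKM and did not pass (log2 fold change -0.17, 95% interval -0.41 to 0.08, adjusted p = 0.282). The FPKM ratio of decoy to RANK was 0.132 to 0.802 with saline and 1.19 to 6.67 with Ang II. In all saline libraries RANK was thus the higher of the pair and in all Ang II libraries the decoy was, and the log2 ratio differed by 2.46 (exact permutation, adjusted p = 0.000373). This pair was chosen after the values were seen, so the p is no independent support.

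Relative to TRAIL itself, both decoys that passed were higher within the Ang II libraries. The FPKM ratio of Tnfrsf23 to Tnfsf10 had a median of 0.289 with saline and 5.27 with Ang II, and that of Tnfrsf11b to Tnfsf10 moved from 1.69 to 14.8. Their log2 ratios rose by 3.09 and 2.94 (exact permutation, adjusted p = 0.000373 and 0.000622). The corresponding rises for Tnfrsf10b and Tnfrsf22 were 1.37 and 0.98 (exact permutation, adjusted p = 0.0298 for both). All of these ratios share Tnfsf10 and are not independent of each other. Without Saline 3, 4 or 5 or without Ang II 1 the Tnfrsf10b ratio missed the threshold (highest adjusted p = 0.0578), as did the Tnfrsf22 ratio without Saline 1, 3, 4 or 5 or without Ang II 1, 2 or 3 (highest adjusted p = 0.0613). Of the remaining ligand and receptor pairs, the log2 ratios of Tnfrsf9 to Tnfsf9, Tnfrsf13b to Tnfsf13 and Ltbr to Ltb differed by 0.12, 0.63 and 0.17 (exact permutation, adjusted p = 0.730, 0.121 and 0.776), and the Tnfrsf13b ratio passed without Saline 6 (0.88, adjusted p = 0.00932).

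**Figure D3:**
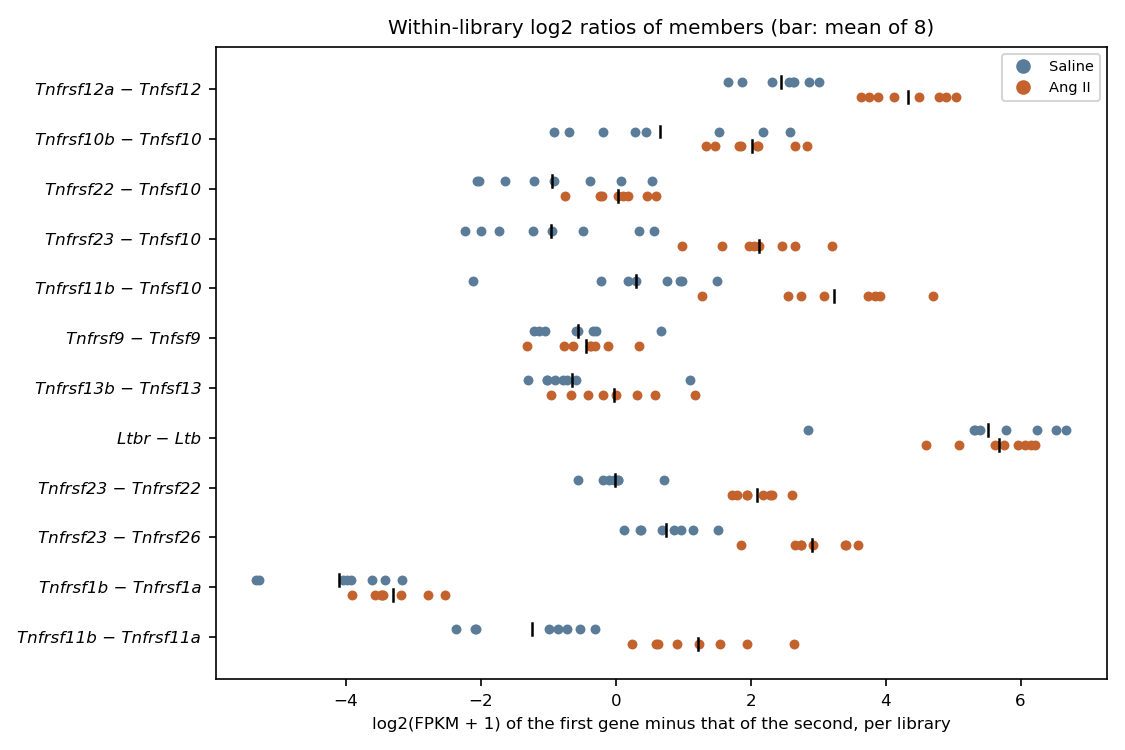
Log2(FPKM + 1) of the first gene minus that of the second for 12 pairs, 1 point per library, saline in blue and Ang II in orange, with bars at the means of 8. The groups do not overlap for Tnfrsf12a to Tnfsf12, Tnfrsf23 to Tnfsf10, Tnfrsf23 to both neighbours and Tnfrsf11b to Tnfrsf11a.

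The receptors of TNF stood at very different levels. TNFR1 (Tnfrsf1a), the widely expressed death domain receptor of TNF, ran from 99.5 through 131 to 172 FPKM with saline and from 106.8 through 124.7 to 154.5 with Ang II, without a call (log2 fold change -0.12, 95% interval -0.35 to 0.12, limma adjusted p = 0.442). TNFR2 (Tnfrsf1b), which binds TRAF2 and is found mainly on leukocytes and endothelium, ran from 2.66 through 7.98 to 12.8 FPKM with saline and from 7.76 through 11.6 to 18.1 with Ang II. Of the Ang II libraries 3 lay above all saline libraries. The means of 7.66 ± 3.39 and 12.2 ± 3.80 FPKM gave a log2 fold change of 0.68 ± 0.26 that narrowly passed (adjusted p = 0.0475).

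That call for Tnfrsf1b was held in only 10 of 28 alternatives. It was lost without Saline 2, 4, 6, 7 or 8 and without Ang II 1, 3, 4, 5, 6 or 7, 1 library at a time, although the log2 fold change stayed between 0.52 and 0.72 in those fits. Without Saline 7 and Saline 8 together the log2 change was 0.34 (adjusted p = 0.149), and once the macrophage marker score entered the fit it was 0.27 (adjusted p = 0.438). Within groups, Tnfrsf1b correlated with that score at Pearson r = 0.71 (Spearman rho = 0.74) in saline and r = 0.71 (rho = 0.62) in Ang II libraries. Exact permutation p for r was 0.0505 and 0.0369, with adjusted p = 0.435 for both over 124 relations. Without the 2 libraries farthest from the median score r was 0.68 and 0.55. With the smooth muscle score r was 0.0094 in saline and -0.76 in Ang II libraries (exact permutation p = 0.982 and 0.0321, adjusted p = 0.982 and 0.435). The log2 ratio of Tnfrsf1b to Tnfrsf1a, also chosen after the values were seen, differed by 0.80 (exact permutation, adjusted p = 0.0298), and without Saline 7 and Saline 8 it was 0.39 (adjusted p = 0.136). That ratio also missed the threshold without Saline 4, 5, 7 or 8 or Ang II 1, 3 or 4. Over all 124 relations of members with the macrophage or smooth muscle score, none passed an adjusted p under 0.05 by Pearson or Spearman with exact permutation, and 10 had an unadjusted Pearson p under 0.05.

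**Figure D4:**
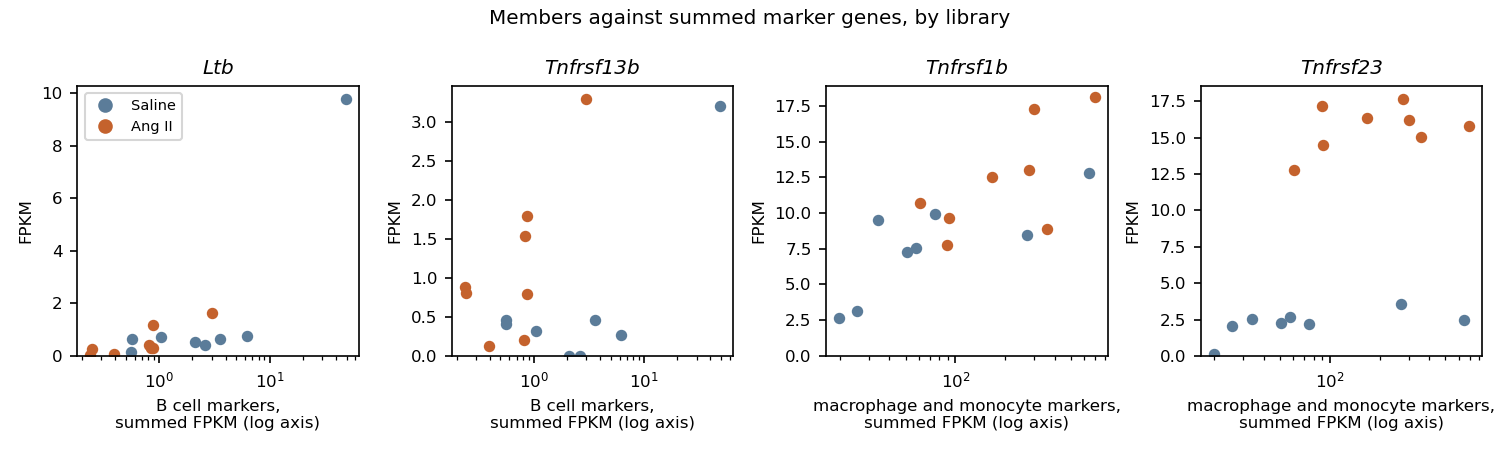
FPKM of members against summed FPKM of marker genes on a log axis, 1 point per library, saline in blue and Ang II in orange. Saline 6 stands alone at the top for B cell markers (49.1 FPKM) and for Ltb (9.78 FPKM).

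The remaining receptors without a call covered a wide range of levels. Fas, a death receptor, stood at 50.3 ± 7.13 and 49.8 ± 7.10 FPKM (log2 fold change -0.01, 95% interval -0.24 to 0.22, limma adjusted p = 0.941). The lymphotoxin receptor Ltbr averaged 92.9 ± 32.8 and 74.5 ± 10.5 FPKM (adjusted p = 0.241) and Tnfrsf25, a death domain receptor of T cells, 20.7 ± 14.1 and 13.6 ± 4.90 FPKM (adjusted p = 0.315). Both had their highest saline value in Saline 8, and without Saline 7 and Saline 8 their log2 fold changes were -0.03 and -0.13. Cd40, the receptor through which T cells activate antigen-presenting and vascular cells, ran from 1.199 through 2.10 to 4.33 FPKM with saline and from 1.05 through 4.88 to 8.04 with Ang II. In 5 Ang II libraries it lay above all saline libraries and in 1 below them, so that its log2 fold change of 0.65 did not pass (adjusted p = 0.0770), but it did without Ang II 2 (0.84, adjusted p = 0.0114), Ang II 6 (0.0429) or Saline 4 (0.0452). It also passed on all 16 libraries with sample weights (0.72, adjusted p = 0.0218).

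The lymphocyte receptors were low. Tnfrsf13b (TACI, of B cells) was at 0 to 3.22 FPKM with saline, where the highest value came from Saline 6 and the next was 0.463, and at 0.126 to 3.30 with Ang II. It did not pass (log2 fold change 0.45, adjusted p = 0.254), and without Saline 6 it did (0.67, adjusted p = 0.0438). Tnfrsf13c, the BAFF receptor, lay below the minimum with 76 and 9 fragments, of which 59 came from Saline 6. Tnfrsf17, the plasma cell receptor BCMA, gave 7 fragments with saline and none with Ang II. These 7 fragments were 2.50-fold above the same limit of 3 fragments over the group, a ratio that leaves out their own counting error. Tnfrsf17 was detected in 4 of 8 saline libraries and did not pass in the fit without the minimum (limma adjusted p = 0.151). Tnfrsf8 (CD30, of activated lymphocytes) gave 4 and 13 fragments. Tnfrsf14 (HVEM), a receptor of LIGHT, averaged 4.09 ± 2.58 and 3.12 ± 1.47 FPKM, Tnfrsf18 (GITR, of regulatory T cells) 2.26 ± 1.72 and 2.86 ± 0.866 and the costimulatory receptor Tnfrsf9 0.384 ± 0.548 and 0.640 ± 0.615, all without a call (adjusted p = 0.707, 0.304 and 0.417). Tnfrsf18 shares 27.2% of its exon bases with other genes.

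Among the receptors that fell, Tnfrsf21 (DR6), a death domain receptor whose ligand is not among those paired here, ran from 2.16 through 6.28 to 7.81 FPKM with saline and from 0.846 through 2.18 to 3.85 with Ang II. In 4 Ang II libraries it lay below all saline libraries. The means were 5.404 ± 2.48 and 2.38 ± 0.945 FPKM, with a change of -0.86 ± 0.25 on the log2 scale (limma adjusted p = 0.0144) that held in all 28 alternatives. OX40 (Tnfrsf4), the T cell costimulatory partner of Tnfsf4, ran from 1.32 through 2.86 to 11.02 FPKM with saline and from 0.735 through 1.16 to 3.47 with Ang II. The groups overlapped for 4 of the Ang II libraries, and the log2 fold change was -0.87 ± 0.28 (adjusted p = 0.0232). It was -0.53 without Saline 7 and Saline 8 (adjusted p = 0.0543) and missed the threshold after median ratio scaling (adjusted p = 0.0537) and with the adipocyte marker score in the fit (-0.58, adjusted p = 0.120). Adipocyte markers summed to a median of 69.8 FPKM with saline (4.17 to 212) and 12.2 FPKM with Ang II (2.41 to 106), with 1 of 7 lower and none higher.

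Tnfrsf19 (TROY), an orphan receptor of stem and neural cells, lay just below the minimum. It gave 232 fragments with saline and 47 with Ang II, and ran from 0.281 through 0.684 to 1.60 FPKM with saline and from 0.0259 through 0.151 to 0.289 with Ang II. In 7 of 8 Ang II libraries it lay below all saline libraries. In the fit without the minimum its log2 fold change was -0.61 ± 0.12 (limma adjusted p = 0.00301).

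The TRAF adapters, which link most of these receptors to kinases, were all well above the minimum. Traf7, which binds MEKK3 and is a ubiquitin ligase, was the most abundant, with 98.6, 109.4 and 198.5 FPKM with saline and 78.8, 90.0 and 99.8 with Ang II. All Ang II libraries but 1 lay below all saline libraries. Its log2 fold change was -0.41 ± 0.13 (limma adjusted p = 0.0184), but -0.27 after median ratio scaling (adjusted p = 0.162) and -0.19 after quantile normalization (adjusted p = 0.170). Without Saline 7 and Saline 8 it was -0.27 and without Saline 2 as well -0.22, and Traf7 passed in both fits (adjusted p = 0.0140 and 0.0237). Traf5, an adapter of CD40 and lymphotoxin receptor signalling, had 24.2, 27.4 and 57.4 FPKM with saline and 14.1, 20.1 and 26.2 with Ang II. In 7 Ang II libraries it lay below all saline libraries. Its means of 33.1 ± 11.5 and 20.1 ± 3.84 FPKM gave a log2 fold change of -0.66 ± 0.17 (adjusted p = 0.00739) that held in all 28 alternatives. The 3 highest saline values came from Saline 8, 2 and 7, and without these libraries the change was -0.37 (adjusted p = 0.0267).

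The other adapters did not pass. Traf1, a regulator bound to TNFR2, averaged 4.68 ± 1.38 and 3.26 ± 1.14 FPKM (log2 fold change -0.43, adjusted p = 0.0806) and passed without Ang II 6 (adjusted p = 0.0479). Traf3, which restrains the alternative NF-kB route, averaged 7.71 ± 2.12 and 9.87 ± 1.40 FPKM (log2 fold change 0.35, adjusted p = 0.0854) and passed without Saline 5 (adjusted p = 0.0493), after median ratio scaling (0.0147) and after quantile normalization (0.0113). Traf2, Traf4 and Traf6 had log2 fold changes of -0.18, -0.28 and -0.14 (limma adjusted p = 0.316, 0.256 and 0.347). Traf6 passed with sample weights (-0.24, limma adjusted p = 0.0235).

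**Figure D5:**
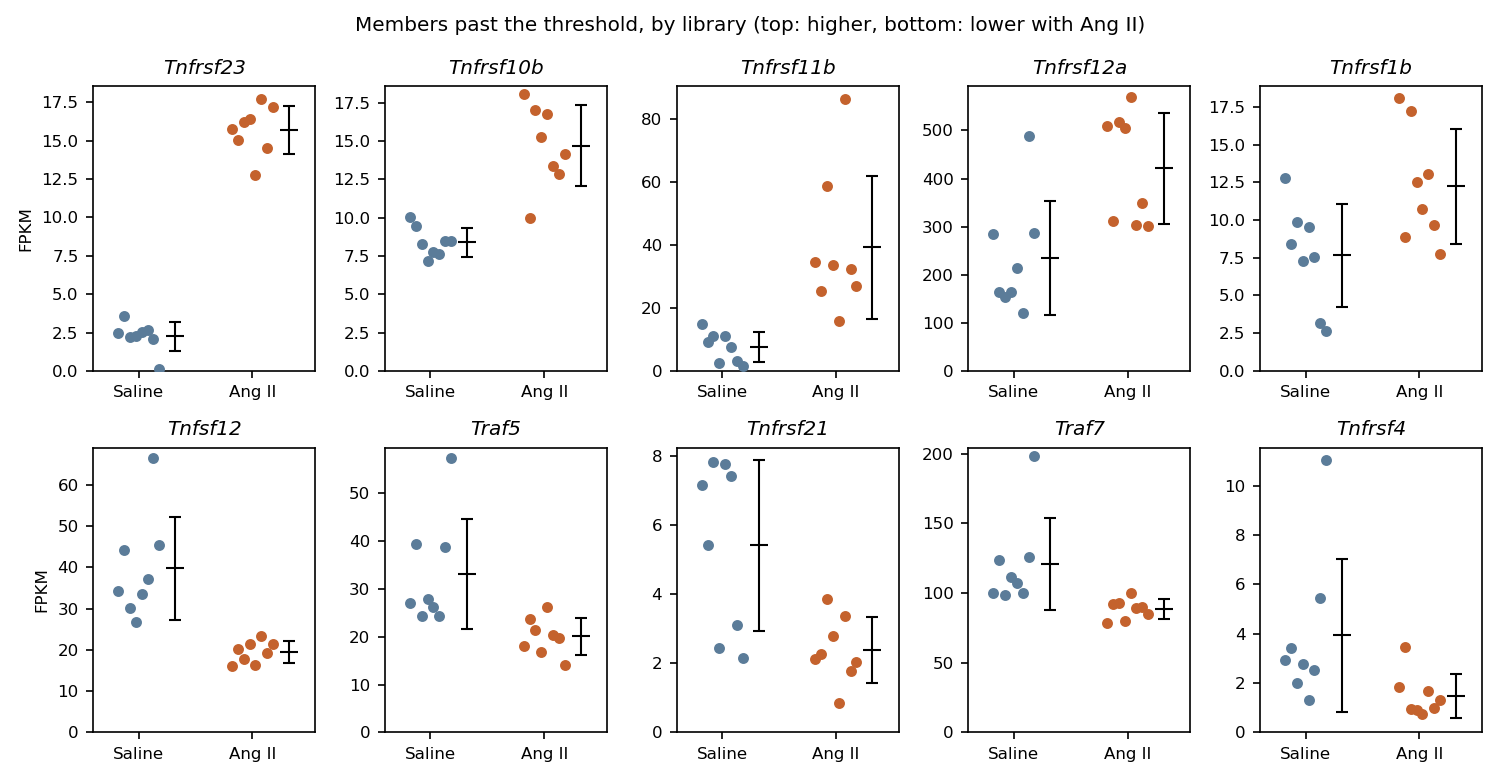
FPKM of the 10 genes past the threshold in each library, with the 5 that rose in the top row and the 5 that fell in the bottom row; points are libraries and error bars are the mean ± SD of 8. Tnfrsf23 and Tnfrsf11b separate the groups completely, as does Tnfsf12 in the other direction, while Tnfrsf1b overlaps.

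Beyond the 46 genes, 7 other superfamily genes were listed, of which 4 were tested, 2 rose and none fell. Relt, an orphan TNF receptor, rose from 0.928 ± 0.388 to 4.51 ± 2.68 FPKM (log2 fold change 1.41, limma adjusted p = 0.000169). Eda2r, the p53-responsive ectodysplasin A2 receptor, rose from 0.882 ± 0.410 to 3.00 ± 1.64 FPKM (1.02, adjusted p = 0.00234). Of 15 tested adapters and regulators of cell death 7 rose and 2 fell, with a median log2 fold change of 0.23, and 8 rose and 2 fell after median ratio scaling. Among all tested genes the shares were 9.54% higher and 24.9% lower, and 14.9% and 14.1% after that scaling, against which the counts of this list and of those below are to be read. Bid, which carries the caspase-8 signal to mitochondria, rose from 2.33 ± 0.674 to 5.63 ± 1.04 FPKM (1.01, adjusted p = 4.41e-05), Ripk3, a kinase of necroptosis, from 2.75 ± 0.698 to 6.45 ± 1.54 (0.99, adjusted p = 0.000110), and Casp8 itself from 9.29 ± 1.63 to 12.3 ± 1.495 (0.38, adjusted p = 0.0163). Cradd, a death domain adapter, fell from 6.49 ± 1.19 to 3.73 ± 0.745 FPKM (-0.66, adjusted p = 0.000618), and Birc2 (cIAP1), a ubiquitin ligase recruited by TRAF2, from 36.4 ± 8.66 to 23.7 ± 3.49 (-0.58, adjusted p = 0.00370).

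Of 23 tested genes of the NF-kB and MAP kinase cascades 4 rose and 6 fell, with a median of -0.0024; after median ratio scaling 5 rose and 2 fell. The share that fell was near the 24.9% of all tested genes. Ikbkg (NEMO), the regulatory subunit of the IkB kinase, rose from 11.2 ± 2.94 to 23.5 ± 4.35 FPKM (1.03, limma adjusted p = 0.000128). The kinase genes Mapk8 (JNK1) and Map3k7 (TAK1) rose by 0.35 and 0.29 on the log2 scale (adjusted p = 0.0298 and 0.0386). Mapk14 (p38 alpha) fell from 47.1 ± 5.51 to 34.7 ± 2.88 FPKM (-0.43, adjusted p = 0.00128), Nfkbib, an inhibitor of NF-kB, from 19.7 ± 4.98 to 12.9 ± 1.28 (-0.55, adjusted p = 0.00313) and Rela, the p65 subunit, from 41.5 ± 6.84 to 29.7 ± 3.99 (-0.46, adjusted p = 0.00352). After median ratio scaling Rela missed the threshold (-0.33, adjusted p = 0.0504). Of the 28 alternatives, Mapk8 held in 19 and Map3k7 in 14.

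Of 20 tested genes that TNF is known to induce 4 rose and 1 fell, with a median of 0.37, and 4 rose and none fell after median ratio scaling (all genes 9.54% higher and 24.9% lower, then 14.9% and 14.1%). Cyclooxygenase 2 (Ptgs2) rose from 11.7 ± 6.99 to 78.5 ± 44.1 FPKM (2.54, limma adjusted p = 0.000162), and the monocyte-attracting chemokines Ccl2 and Ccl7 rose from 0.401 ± 0.425 to 5.98 ± 6.17 (1.93, adjusted p = 0.00155) and from 0.244 ± 0.170 to 5.55 ± 7.29 (1.74, adjusted p = 0.00982). Nfkbia, the inhibitor that NF-kB itself induces, fell from 89.2 ± 25.1 to 60.9 ± 16.2 FPKM (-0.54, adjusted p = 0.0251), which held in 18 of 28 alternatives. Macrophage and monocyte markers had a median sum of 54.2 (saline) and 223 (Ang II) FPKM, with 3 of 11 higher, and their part was not tested. The A20 gene Tnfaip3 (0.16, adjusted p = 0.640) and the adhesion molecules Icam1 (0.31, 0.657) and Vcam1 (0.62, 0.297) did not pass. None of the 6 genes of ligand and receptor shedding passed at an adjusted p under 0.05, with Timp3 nearest at 1.61 (adjusted p = 0.0682); Timp3 passed in 4 of 28 alternatives, among them median ratio scaling (1.76, adjusted p = 0.0495). Of 6 tested genes known to respond to RANK ligand 1 rose, the collagen-cleaving protease Ctsk (1.41, adjusted p = 7.72e-05), and none fell.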

How the data were processed

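The authors deposited one table of FPKM values (fragments scaled by transcript length and library size) on GRCm38 (build per the submitters' processing notes). Aligner, counter and strand setting were not given in the sources used here. Samples were grouped by their titles and matched to columns by library name. Whole fragments recovered from the FPKM and GENCODE M21 transcript lengths came out whole within 0.02 for 95.8% to 96.3% of values.

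The test took genes averaging 0.5 FPKM or more over 16 libraries and was run on log2(FPKM + 1), as derived from the deposited FPKM, with limma 3.58.1 (trend) in R 4.3.3, two-sided, with Benjamini-Hochberg adjustment over 15007 genes. Within-library log2 ratios of 12 pairs (4 chosen after their values were seen) had exact permutation tests over 12870 assignments, and correlations over 124 relations exact pairing tests (Python 3.11.15, scipy 1.17.1). Exon overlap used bedtools 2.31.1. Scripts were checked on simulated data. Alternatives were another pseudocount, other filters, median ratio scaling, quantile normalization, sample weights, marker score covariates, a replicate block, each library left out, voom on recovered fragments, the exclusion of Saline 7 and 8 and that of Saline 2, 7 and 8. The last 3, and all alternatives for the ratios, were chosen after seeing the data.

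The members and lists were chosen with earlier results of these data known. Values are given in full for members past the threshold and their ligand or receptor partners; from each list up to 3 risen and 3 fallen genes averaging 1 FPKM or more are named, by adjusted p, and Tnfaip3, Icam1, Vcam1 and Timp3 were added after their values were seen. Errors are SDs over 8 libraries unless named SE.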

Additional observations from a re-analysis of the deposited data

Results flagged for a closer look

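On the log2(FPKM + 1) scale, the lowest or highest value of 7 of 62 groups of 8 libraries stood further from the next than Dixon's 95% critical value allows. That value allows about 1 in 20 by chance only for normal values in independent groups. The 62 groups share the same 16 libraries and normality was not tested, so 7 cannot be set against that rate. The values below are in FPKM. Saline 8 held 3 of these values, with Tnfrsf23 at 0.133 FPKM (next 2.09), Tnfrsf22 at 0.671 FPKM (next 1.77) and Traf7 at 198.5 FPKM (next 125.6). Saline 6 was highest for Ltb at 9.78 FPKM (next 0.751) and for Tnfrsf13b at 3.22 FPKM (next 0.463), and the same library had the highest summed B cell markers. Saline 2 was highest for Tnfrsf9 at 1.68 FPKM (next 0.475). Saline 7 was lowest for Traf6 at 5.57 FPKM (next 8.12).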

How the results depend on the processing

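Of the 10 calls, 7 (Tnfrsf23, Tnfrsf11b, Tnfrsf12a, Tnfrsf10b, Tnfsf12, Traf5 and Tnfrsf21) held in all 28 alternatives, while Tnfrsf1b held in 10, Tnfrsf4 in 22 and Traf7 in 24. The count of genes past the threshold, 5172, was 3445 with the adipocyte score as a covariate and 3198 with the macrophage score. It was 6738 with sample weights (44.9%) and 4491 to 5407 with 1 library left out. Members that fell were 3 after median ratio scaling, 3 with the macrophage score and 7 with sample weights. Of the 15007 tested genes 2113, 2327 and 5050 fell in these fits, against 3741 in the main fit. With 1 library left out 4 to 6 members rose and 5 to 6 fell. Of all tested genes 1177 to 1535 rose and 3235 to 3894 fell in those fits. The direction turned only for members and ratios without a call. Fas turned to 0.037 with the macrophage score, 0.13 after median ratio scaling, 0.18 after quantile normalization, 0.10 with sample weights, 0.036 without Saline 7 and 8 and 0.084 without Saline 2, 7 and 8, and ran from -0.065 to 0.023 with 1 library left out. Tnfrsf1a turned to 0.016, 0.027 and 0.12 in the first 3 of these settings. Tnfrsf9 and Tnfsf9 turned to -0.0130 and -0.0125 with the macrophage score. Ltbr turned to 0.0126 with sample weights and, without Saline 2, 7 and 8, to 0.0255, as did Tnfrsf25 to 0.081 and Traf2 to 0.0022. The Ltbr to Ltb ratio was -0.21 without Saline 6 (-0.21 to 0.34 with 1 library left out) and the Tnfrsf9 to Tnfsf9 ratio -0.056 without Saline 7 and 8. The causes were not tested.

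With the replicate number as a block, 4945 genes passed (33%), 1414 higher and 3531 lower. In that fit 6 members rose and 5 fell, Cd40 being added (limma adjusted p = 0.0214). Same-numbered libraries of the 2 groups correlated from -0.25 to 0.39 in their deviations, over 0.1 in 5 of 8 pairs, and 2 saline libraries were closest to their own number. These values cannot settle whether the numbers pair the samples, and the labels do not say. Limma voom on the recovered fragments passed 5089 genes (33.9%), 1447 higher and 3642 lower, with 5 members higher and 5 lower. Depth limits most of the 15 members below 0.5 FPKM.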
